A study of Saccharomyces cerevisiae
Saccharomyces paradoxus with 24 samples.

Results

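Rap1 occupancy before any depletion was measured in 4 of the 24 libraries of the series, a ChIP library and its input from each of the strains JRy15237 (strain 1) and JRy15238 (strain 2), at all 1118 of the 1118 Rap1 windows in the deposited table. The libraries were those labelled 0 min. These cells had received DMSO and no rapamycin, and the labels give 60 min for that treatment. The ChIP libraries were made from chromatin precipitated through the V5 tag on Rap1, and the input libraries from chromatin that was not precipitated. Both strains were labelled with 1 genotype, so ChIP and input shared every allele. Rap1 carried the anchor-away tag FRB with V5 inside the protein, Rap1(134)-FRB_2xV5. The ribosomal protein that serves as its anchor was RPL13A-2xFKBP12::TRP1, and TOR1(S1972I) and fpr1::NAT made growth insensitive to rapamycin. At the mating-type loci the strains had hmlalphadelta::UniqueHMLwithSNPs, an HML with single-base changes, and hmrdelta::HygMX in place of HMR. The remaining markers were bar1delta::k.l.URA3, can1-100, ura3, trp1-1 and lys2, with the usual laboratory alleles of leu2 and his3. Cells of S. paradoxus strain JRy15212, which carried Rap1-2xV5, had been mixed into every sample as a spike-in. The strains were 2 isolates of that genotype, and p-values below rest on the spread between them only. With the deposited scaling and no trend, that spread was pooled over all windows into the same standard error. Such a p-value does not measure the spread at its own window.

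Rap1 is an essential DNA-binding protein of budding yeast. It activates most ribosomal protein genes and many genes of glycolysis and translation, it coats the telomeric repeats at chromosome ends, and it recruits the Sir proteins to the E and I silencers of HML. The promoter inside HML that drives the alpha1 and alpha2 genes, called HML-p here, is itself bound by Rap1 and is present in a second copy at the active MAT locus (MAT-p).

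Each window covered 150 bp on either side of a peak summit. Its value, the signal, was the read number of the window divided by the S. paradoxus reads in that library and multiplied by 1000000. The median window held 708.5 and 718.5 reads in the ChIP libraries of strains 1 and 2, against 151 and 157 reads in the input libraries. The counting error of a log2 ratio (SE, from reads alone) was 0.129 in strain 1 and 0.127 in strain 2 at the median window. The windows were peaks called on these same ChIP libraries against a control without the tag. They were thus chosen for ChIP signal, and that a window stood out in the ChIP is no finding. Their order, and their level against input, which the peak calls did not use, are described here.

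Rap1 ChIP over input spanned a wide range across the windows, and both strains gave nearly the same order of loci. The log2 ratio of ChIP to input had a median of -0.90 in strain 1 and -1.47 in strain 2, a mean of -1.19 ± 0.40 (SD, n = 2). A log2 ratio of 0 means that a window was recovered as well as the S. paradoxus genome as a whole, so the sign rests on the spike-in. It was above 0 in both strains at 247 windows, below 0 in both at 793 and of opposite sign at 78. Across windows, the log2 ratios of the strains correlated with r = 0.985 and rho = 0.953, a description over 1118 windows that share their libraries. The strains differed mainly by a common shift: strain 1 was higher at 1104 windows, by a median of 0.52.

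Because that shift is common to the windows of a strain, loci are compared below by their relative enrichment, which is the log2 ratio of a window minus that of the median window of the same strain. The spike-in cancels in this difference. Relative enrichment differed between the strains by an SD of 0.109 at the median window. Over the windows it spanned 6.78 log2 units between the highest and the lowest. Most windows lay near the middle: 502 were within 0.5 of the median. In both strains, 294 windows were more than 1 above the median, 163 more than 2, 79 more than 3 and 22 more than 4, whereas 31 were more than 1 below it. The distribution thus had a long upper tail and a short lower one.

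**Figure D1:**
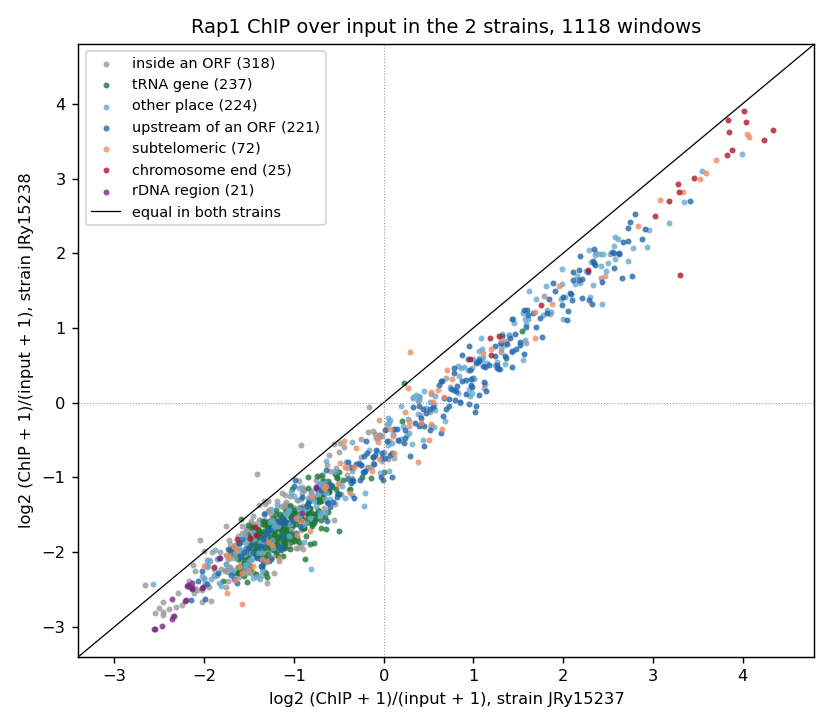
The log2 ratio of ChIP to input in strain 2, vertical axis, against strain 1, horizontal axis, for the 1118 windows, coloured by the class of the window. The points run along the line of equality (r = 0.985) and lie mostly below it, as strain 1 was higher at 1104 windows, and chromosome ends reach the highest values.

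With the deposited spike-in scaling, limma (2-sided, adjusted over the 1118 windows, threshold 0.05) called ChIP above input at 118 windows (10.6% of those tested) and below input at 461 (41.2%), with a standard error of 0.61 at every window. A block for the strain takes out a level that ChIP and input of a strain share, but not the common shift of their ratio. With this block 206 (18.4%) were above and 741 (66.3%) below, with a standard error of 0.29 at every window. With each library scaled to its own median window, 474 (42.4%) were above the median and 384 (34.3%) below. A trend of the variance on mean signal left 43 above and 19 below with the deposited scaling. Calls on the scale of the median window are written as above or below the median window.

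The strongest Rap1 windows lay at chromosome ends. Of the 10 windows with the highest relative enrichment, 7 were within 300 bp of an end, 2 were subtelomeric (within 15 kb of an end) and 1 was the promoter of RPL2B. The highest of all, at the right end of chromosome XIII (924205 to 924505), had a ChIP signal of 1230 and 1366 in strains 1 and 2, against an input signal of 59.9 and 108. Its relative enrichment was 5.24 and 5.11, which is 36.2-fold over the median window, from 48 and 42 input reads. At the right end of chromosome XI (666549 to 666849) the ChIP signal was 2864 and 3921, against 176 and 260 in the input. The left end of chromosome III (120 to 420) had 13679 and 18944 in the ChIP libraries, against 834 and 1404 in the input. ChIP exceeded input in both strains at all 3 of these ends (adjusted p from limma of 7.52e-08, 7.52e-08 and 9.01e-08).

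A window lay within 300 bp of the end of 25 of the 32 chromosome arms. Their median relative enrichment was 3.95, a 15.4-fold excess over the median window. Of the 25, 16 were called above input (64%, against 10.6% of all windows) and 5 below (20%, against 41.2%). In addition, 20 were above the median window (80%, against 42.4%) and 5 below it (20%, against 34.3%). Relative enrichment exceeded 3 at 15 ends and 4 at 12. The windows at the ends thus fell into a strong and a weak set, with 20 at a mean of 1.96 or higher. The weak set held those at the right ends of V, VII and XVI and the left ends of V and XIV. Means in the weak set were -0.36 to -0.86, and its windows were centred 214 to 263 bp from the end. The strong windows were centred at most 177 bp from it, except that at the left end of III, at 269 bp. The part of this distance in the split was not tested. Input was also uneven at the ends, with a median of 1.59 times the input of the median window. It was 3.95 times at the left end of III and 0.29 times at the right ends of XIII and III, so these last 2 had a high ratio over a low input and ranked 83 and 91 by ChIP signal alone. Its part in the result was not tested. The left end of VII, at 4.20 and 3.17, rested on 3 and 6 input reads.

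**Figure D2:**
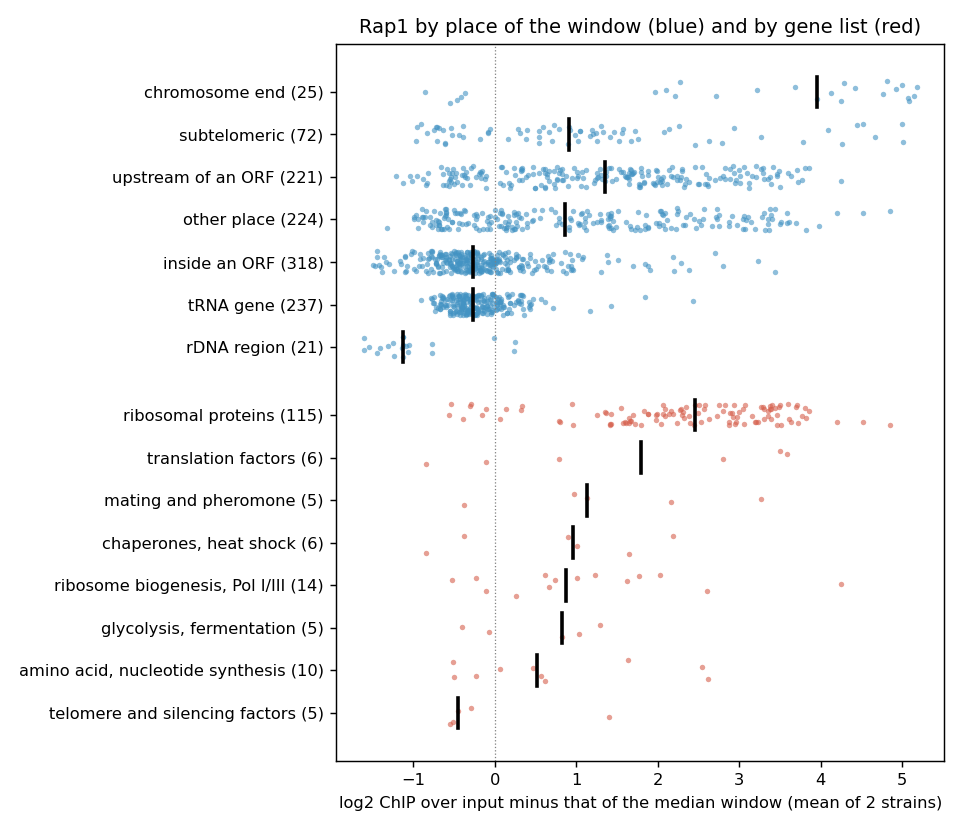
Relative enrichment (log2 ChIP over input minus the median window, mean of both strains) on the horizontal axis, by class of window (blue) and by gene list (red). Each point is a window and the bars mark medians, which for the classes run between 3.95 for chromosome ends and -1.13 for the rDNA region.

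Farther in, the 72 subtelomeric windows were mixed. Their median was 0.91. ChIP was above input at 12 (16.7%, against 10.6% of all windows) and below at 17 (23.6%, against 41.2%). In addition, 50 were above the median window (69.4%, against 42.4%) and 17 below it (23.6%, against 34.3%). Of these windows, 9 exceeded 3 and had a median of 4.45, and the other 63 had a median of 0.70. HML-p, described below, is one of the 9. A window at chromosome XII 11118 to 11418 was among the strong ones. Its ChIP signal was 8733 and 11707, against 521 and 994 in the input, a relative enrichment of 4.97 and 5.02. At VIII 556758 to 557058 ChIP gave 7214 and 9323, against 436 and 773 in the input. They ranked 5 and 6 among all windows, after 4 chromosome ends.

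Ribosomal protein (RP) gene promoters were the largest group among the strong windows. Of the 137 annotated RP genes, 119 had a window within 500 bp upstream of the start codon, and because some share one, they came to 115 windows. Their median relative enrichment was 2.46, or 5.50-fold over the median window, with quartiles at 1.66 and 3.28. ChIP was called above input at 54 of the 115 (47.0%, against 10.6% of all windows) and below at 5 (4.3%, against 41.2%). On the median scale 106 (92.2%) were above the median window and 5 below, against 42.4% and 34.3% of all windows. Promoters of large and small subunit genes had similar medians, 2.45 over 70 windows and 2.58 over 49. Ordered by relative enrichment, the top 279 windows held 100 RP windows and the bottom 280 held 2. Among the 50 highest windows 21 were RP promoters, 14 chromosome ends and 8 subtelomeric.

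RPL2B, which encodes a protein of the large subunit, had the strongest promoter. Its window (IX 316227 to 316527) had a ChIP signal of 3593 and 4806, against an input signal of 225 and 479. The log2 ratio from limma was 3.66 ± 0.61 (SE, adjusted p = 3.69e-07), and the relative enrichment was 4.90 and 4.79. RPL1B gave 2130 and 2840 in the ChIP libraries, against 181 and 330 in the input. RPS24A, a small subunit gene, gave 2020 and 2835, against 197 and 440, a relative enrichment of 4.25 and 4.15. At each of these promoters both ChIP values lay far above both input values.

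RP genes were nevertheless not alike. Relative enrichment exceeded 3 at 39 of the 119 genes, was between 2 and 3 at 40 and stayed under 1 at 15. On the median scale 110 genes had a window above the median, 5 had one below and 4 had no call. The 5 below were RPL24B at -0.56, RPS29B at -0.54, RPS29A at -0.39, RPS21A at -0.30 and RPL15A at -0.30, and the 4 with no call were RPS8B at -0.16, RPS22B at -0.10, RPS30B at 0.07 and RPS3 at 0.13. The only 4 RP windows centred within 100 bp of the start codon, those of RPL24B, RPS29B, RPS29A and RPS22B, were among these 9, and the other 5 lay farther upstream, with RPS21A at 318 bp and RPL15A at 199 bp. RP windows were also grouped by distance to the nearest downstream start codon. In some windows that was the start of a neighbouring gene and not of the RP gene. By this distance, windows at 100 to 200 bp had a median of 2.05 and those at 200 to 300 bp 2.56. Those at 300 to 400 bp had 2.50 and those at 400 to 500 bp 2.81. Over the windows of all RP genes this distance had a median of 280 bp. No window was assigned to the other 18 RP genes, among them RPL3, RPL4A, RPL4B, RPS28A and RPS28B.

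Most yeast RP genes exist as an A and a B copy, and the copies often differed in Rap1. Both copies had a window in 48 pairs. As the RPS16 and RPL13 pairs share both windows, these came to 47 distinct comparisons. The absolute A minus B difference in relative enrichment had a median of 1.06. It exceeded 1 in 24 comparisons and 2 in 9, and stayed under 0.3 in 11. The sign was the same in both strains in 42 of the 47.

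The RPS24 pair differed most. RPS24A was at 4.25 and 4.15 and RPS24B at 0.25 and 0.40, a difference of 3.88 ± 0.17 (SD, n = 2), or 14.7-fold. RPS30A was at 3.62 and 3.80 and RPS30B at 0.05 and 0.08, a difference of 3.64 ± 0.10. RPS22A was at 3.09 and 3.44 and RPS22B at -0.11 and -0.10. In these pairs the A copy was the stronger one in both strains. The RPL2 pair went the other way, with RPL2A at 1.97 and 2.16 and RPL2B at 4.90 and 4.79, a difference of -2.78 ± 0.21. RPS0 did as well, with RPS0A at 0.74 and 0.83 and RPS0B at 3.47 and 3.56. At the other extreme, the copies of RPL20, RPS10 and RPL26 were nearest to each other, with differences of at most 0.10 in either strain.

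**Figure D3:**
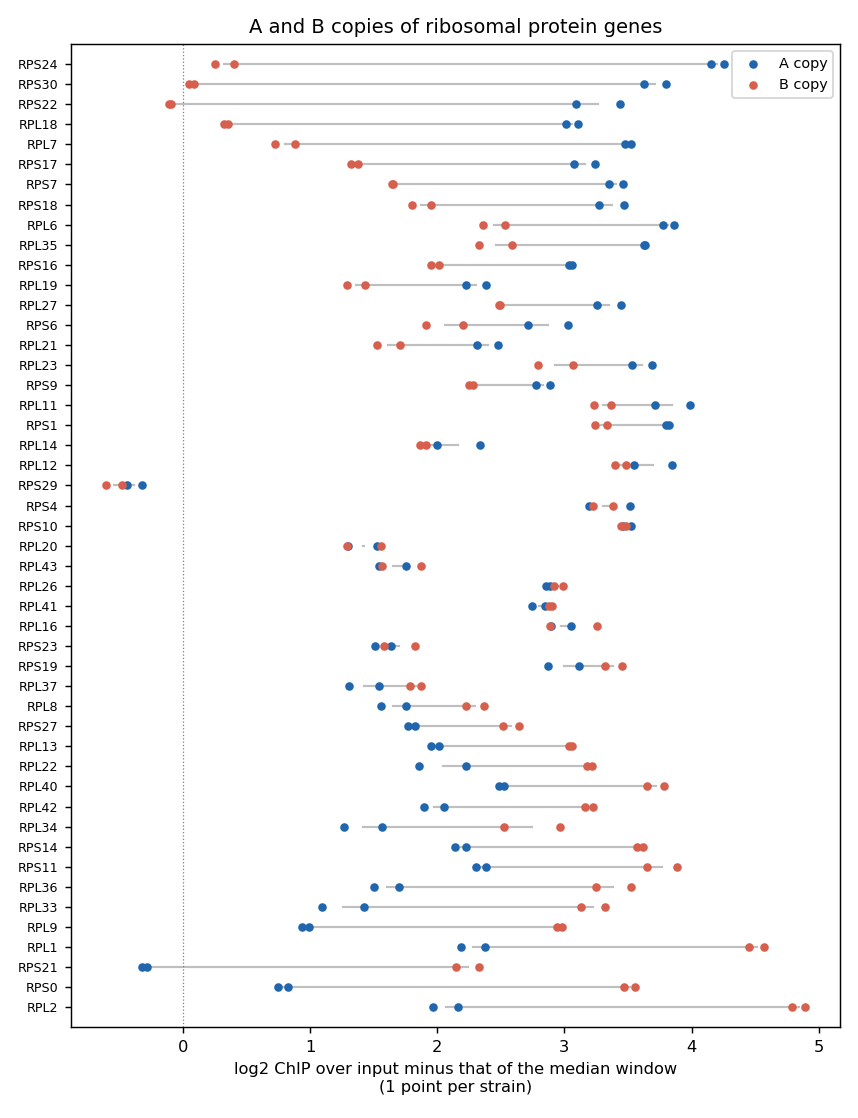
Relative enrichment (log2 ChIP over input minus the median window, horizontal axis) at the promoters of the A copies (blue) and B copies (red) of 48 ribosomal protein gene pairs, with a point for each strain. A line joins the means of the copies, and 24 of the 47 distinct comparisons differ by more than 1.

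The other gene lists had lower medians than the RP genes. The translation factor list had 6 windows and a median of 1.79, and within 300 bp upstream 1 window remained, at 0.79. TEF1 and TEF2 encode the elongation factor eEF1A and were its strongest. At TEF1 (XVI 700015 to 700315) ChIP gave 1503 and 2101, against 245 and 458 in the input, a log2 ratio of 2.40 from limma (adjusted p = 0.0018). At TEF2 ChIP gave 1279 and 1724, against 192 and 464. HYP2, which encodes eIF5A, gave 932 and 1310 in ChIP, against 268 and 487 in the input (limma adjusted p = 0.0262). All 3 genes thus exceeded their input, while YEF3, for elongation factor 3, was at a relative enrichment of 0.81 and 0.77.

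The list of genes for ribosome assembly and for RNA polymerases I and III had 14 windows and a median of 0.87, with 11 above the median window (78.6%, against 42.4% of all windows) and 1 below. BUD22, needed to mature the small subunit's rRNA, stood apart. Its window at XIII 298562 to 298862 gave 1769 and 2245 in ChIP, against 165 and 345 in the input, a log2 ratio of 3.06 (limma adjusted p = 3.88e-05) and the rank of 19. The next was the window shared by UTP4, a small subunit processome gene, and YCG1, at 2.50 and 2.71. REH1 followed at 2.07 and 1.97, RPA34, an RNA polymerase I subunit gene, at 1.78 and 1.76, and TSR1 at 1.76 and 1.47. RPC17, an RNA polymerase III subunit gene, was lowest at -0.50 and -0.55.

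Of the 27 listed genes of glycolysis and fermentation, which include well-known Rap1 targets, few had a window. The 5 windows of the list had a median of 0.83, with 3 above the median window (60%, against 42.4% of all windows) and 1 below, and within 300 bp upstream only GCR1 remained, at -0.40. GPM1, for phosphoglycerate mutase, was at 1.43 and 1.15, ENO1, for enolase, at 1.01 and 1.05, and PGI1 at 0.82 and 0.84. TDH3, for the main glyceraldehyde-3-phosphate dehydrogenase, was at -0.16 and 0.01, and GCR1, for an activator of glycolytic genes, at -0.44 and -0.36. The last 2 are near or below the median window.

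Amino acid and nucleotide synthesis genes had 10 windows and a median of 0.52, with 6 above the median window (60%, against 42.4% of all windows) and 2 below. With windows within 300 bp upstream only, 4 remained and the median was 2.09. The strongest were the window shared by PRO1 and CFT1, at 2.57 and 2.67, and HOM6, for homoserine dehydrogenase, at 2.60 and 2.48. HIS4, a histidine gene whose promoter is a textbook Rap1 site, had a ChIP signal of 386 and 486, against 190 and 528 in the input. The ChIP values thus overlapped the input values (limma adjusted p = 0.521), with a relative enrichment of 1.92 and 1.35. With each library scaled to its median window, HIS4 was called above the median window (limma adjusted p = 1.68e-08). LEU2 was low, at -0.17 and -0.30.

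Chaperone genes had 6 windows with a median of 0.95, led by MDJ1, for a mitochondrial Hsp40, at 2.21 and 2.15. The window shared by HSF1, for the heat shock factor, and MPS2 was at 1.86 and 1.45, and that shared by EFB1 and SSA1 was below the median at -1.03 and -0.65. Of the 26 listed genes for telomere and silencing factors, few had a window. The 5 windows of this list had a median of -0.46. Of them 4 were below the median window (80%, against 34.3% of all windows) and 1 above (20%, against 42.4%). The exception was ORC2, a subunit of the origin recognition complex, at 1.42 and 1.38, while those of YKU70, YKU80, TEN1 and EST3 had means between -0.30 and -0.55.

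At HML, Rap1 was strongest at the promoter and lower at both silencers. The HML-p window (III 12995 to 13295) had a ChIP signal of 798 and 974, against 144 and 299 in the input. Its relative enrichment was 3.37 and 3.17, or 9.64-fold over the median window, and its rank was 64 (limma adjusted p = 0.0065). The window at the I silencer (14505 to 14805) gave 607 and 893 in ChIP, against 165 and 355 in the input (adjusted p = 0.0265). The window at the E silencer (11089 to 11389) gave 597 and 802, against 185 and 440. It did not pass with the deposited scaling (limma adjusted p = 0.0666) and passed with the strain as a block (2.29e-05). A window between E and the promoter, from 11808 to 12108, had 232 and 272 in ChIP, against 162 and 386 in the input. In both strains ChIP exceeded input at the promoter and at each silencer, and in strain 1 alone it did so at the window between.

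The active MAT promoter carried less Rap1 than its silenced copy. MAT-p (III 200151 to 200451) had a ChIP signal of 457 and 592, against 177 and 391 in the input. The relative enrichment was 2.26 and 2.06, at rank 158. ChIP over input was not past the threshold with the deposited scaling (limma adjusted p = 0.154) and passed with the block (0.0011). HML-p minus MAT-p was 1.10 in strain 1 and 1.11 in strain 2, a 2.15-fold difference. The counting error of this difference was 0.184 and 0.181 in the strains, which is larger than the spread between them. A permutation test over 2 strains cannot reach 0.05, and none was run.

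The silencers differed from HML-p by smaller steps. HML-E minus HML-p was -0.81 ± 0.04 and HML-I minus HML-p was -0.48 ± 0.15 (SD, n = 2). HML-I exceeded HML-E by 0.19 in strain 1 and 0.46 in strain 2, with counting errors of 0.175 and 0.168, so in strain 1 the difference was no larger than about its counting error. Both silencers lay above MAT-p in both strains, HML-E by a mean of 0.30 and HML-I by a mean of 0.62. ChIP and input both entered these differences. In ChIP signal alone HML-p exceeded MAT-p by 0.76.

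**Figure D4:**
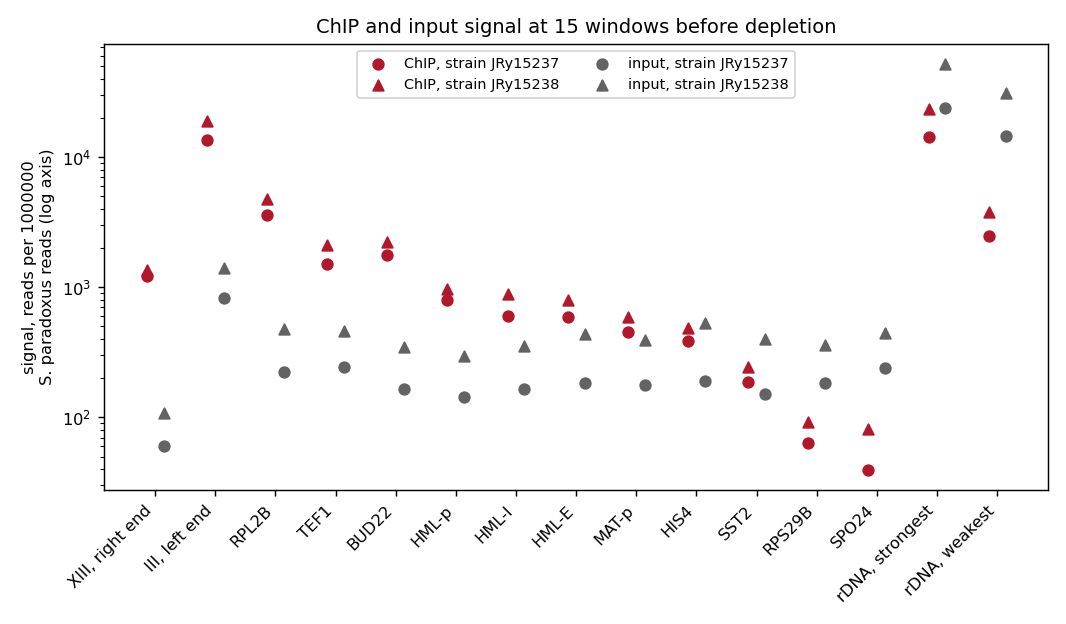
Signal (reads per 1000000 S. paradoxus reads, log axis) in the ChIP libraries (red, left) and the input libraries (grey, right) of strain 1 (circles) and strain 2 (triangles) at 15 windows. At HML-p the ChIP points are at 798 and 974 and the input points at 144 and 299, while at HIS4 ChIP and input overlap.

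Pheromone and mating genes had 5 windows and a median of 1.14, with 4 above the median window (80%, against 42.4% of all windows) and 1 below. Within 300 bp upstream 3 windows remained, with a median of 2.16. SST2, which encodes a regulator of pheromone signalling, had a ChIP signal of 187 and 242, against 152 and 399 in the input (limma adjusted p = 0.771). The mean relative enrichment of SST2 was 0.97 ± 0.32 (SD, n = 2), at rank 313. With each library scaled to its median window, SST2 was called above the median window (limma adjusted p = 1.87e-06). STE3, the receptor gene that alpha cells express, was at 1.11 and 1.16. The window upstream of STE6 and CBT1 was at -0.34 and -0.41, where STE6 encodes the exporter of a-factor and is normally off in alpha cells. RPS4A, an RP gene that shares its window with YJR146W, had 1284 and 1920 in ChIP, against 262 and 464 in the input (adjusted p = 0.0047). Its relative enrichment of 3.19 and 3.51 was close to that of HML-p.

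Where a gene had windows at both places, Rap1 was mostly higher at the promoter than in the body. Of windows inside an ORF, 175 had a promoter window of the same gene to compare, over 131 genes. The promoter window was the higher one in both strains in 161 of these comparisons and the lower one in both in 11, with a median difference of 2.39. Each of the 131 genes had 1 promoter window, so none was chosen among several. At RPL2B the promoter was at 4.90 and 4.79 and the body window farther from the start at -0.39 and 0.15. For RP genes, 123 body windows of 98 genes gave a median difference of 2.65. RP body windows were thus near the median window, at a median of -0.29 over 132 windows. At TEF1 the promoter was at 3.52 and 3.66, and its body windows had means of 1.03 and 1.39 over the strains. TDH3 was an exception, with -0.16 and 0.01 upstream and means of 0.82 and 0.95 at its body windows.

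All windows inside ORFs numbered 318, with a median of -0.27. Of these, 4 were above input (1.3%, against 10.6% of all windows) and 181 below (56.9%, against 41.2%). Against the median window 66 were above and 149 below. The strongest was a window inside YLR406C-A, with a ChIP signal of 1328 and 1872, against 231 and 469 in the input. The next, at RPL33B and HYP2, were RP and translation factor windows that reach 300 to 500 bp upstream into a neighbouring ORF. The 237 windows that overlapped a tRNA gene were alike, at a median of -0.26. Of them 0 were above and 143 (60.3%) below input, and 28 were above and 109 below the median. The strongest tRNA window, at YNCG0034W, had 546 and 750 in ChIP, against 186 and 386 in the input. The authors left peaks over tRNA genes out of their further analysis. Their reasons were that no link of Rap1 to such genes is known and that highly transcribed loci often give ChIP artifacts. Whether this holds for the windows here was not tested. On the median scale 46.9% of the ORF windows and 46.0% of the tRNA windows were below the median, against 34.3% of all windows. Above it were 20.8% and 11.8%, against 42.4% of all windows.

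The lowest relative enrichment was found in the rDNA region on chromosome XII and in a small part of the windows inside ORFs. Of the 20 lowest windows, 11 were inside an ORF and 8 in the rDNA region. Apart from the window in SCS3, these ORF windows lay in overlapping pairs of ORFs known only by locus tags. All 318 windows inside ORFs had a median of -0.27. The rDNA window at XII 467238 to 467538 had a ChIP signal of 2491 and 3819, against 14629 and 31174 in the input, a relative enrichment of -1.65 and -1.56. The 21 rDNA windows had a median of -1.13. Of them 0 were above input (against 10.6% of all windows) and 18 below (85.7%, against 41.2%). On the median scale 2 were above the median window (9.5%, against 42.4% of all windows) and 18 below it (85.7%, against 34.3%). Those 2, starting at XII 454342 and 463479, had a mean relative enrichment of 0.25 and 0.24. The rDNA is a tandem repeat, and input there was a median of 128 times that of the median window. Several of its windows came in pairs with near-equal values, such as those starting at 457214 and 466338, with means of -1.25 and -1.24. The 21 may thus not be independent loci. The window at 481975 to 482275 had an input of only 1.79 times that of the median window. In ChIP signal alone, 13 of the 20 windows with the highest ChIP signal were rDNA windows, and 6 windows were among the 20 highest by both ChIP signal and ChIP over input. Across all windows the ranks correlated with rho = 0.804, and with rho = 0.891 without the rDNA.

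**Figure D5:**
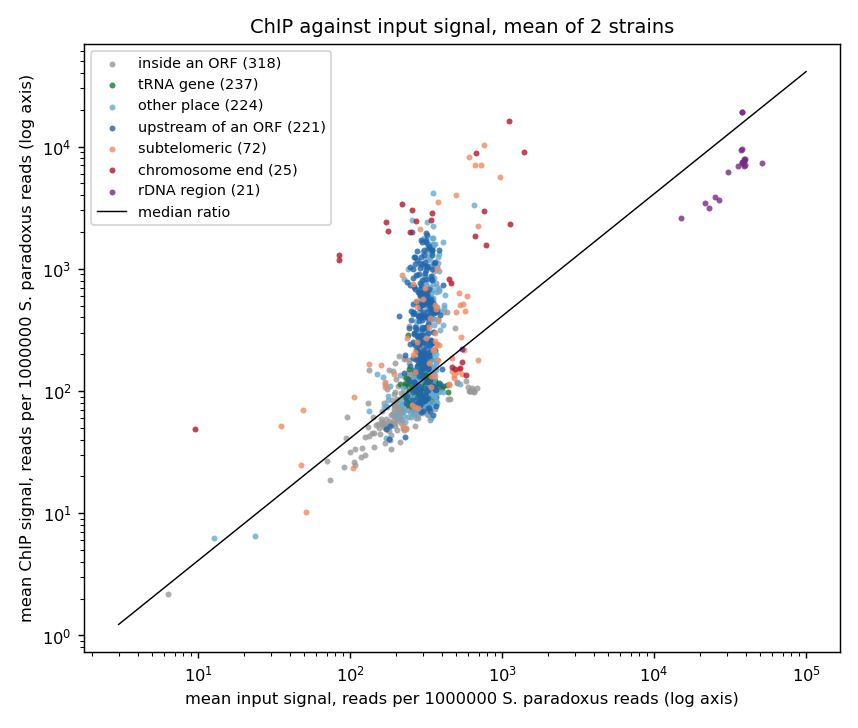
ChIP signal, vertical axis, against input signal, horizontal axis (reads per 1000000 S. paradoxus reads, mean of both strains, both axes log), for the 1118 windows coloured by class. The line marks the median ratio, and most rDNA windows lie far to the right. The median input of the rDNA windows was 128 times that of the median window.

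Other low windows also had a high input. Overlapping pairs of ORFs known only by hyphenated locus tags, such as YLR227W-A, had 16 windows. Their median was -1.32 and their input was 2.09 times that of the median window. A window in the pair YJR026W and YJR027W, whose tags have no hyphen, was not among the 16 and was at -1.39 and -1.08. At YLR227W-A and YLR227W-B the ChIP signal was 73.9 and 122, against 437 and 865 in the input. Outside such ORF pairs and the rDNA, windows inside SCS3 and at SPO24 were low. SCS3 had 41.8 and 74.0 in ChIP, against 268 and 407 in the input, and SPO24 had 39.3 and 81.7, against 238 and 446. Both were below input (limma adjusted p = 0.0009 for SCS3 and 0.0011 for SPO24), and both differed between the strains more than most windows did, at -1.75 and -0.98 for SCS3 and at -1.67 and -0.97 for SPO24. A window inside RPL8B also differed between the strains, at -0.51 and 0.51, but rested on 6 and 2 input reads.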

How the data were processed

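Rap1 ChIP and input libraries of 2 strains at 0 min were analysed. The deposited signal was made by the authors: reads were demultiplexed with CASAVA 2.2, aligned by Bowtie2 against S. paradoxus and a modified sacCer3 together, handled with SAMtools, counted within 150 bp of MACS summits and divided by the S. paradoxus reads of the library without rDNA. The deposited S. paradoxus read counts were 7323681 and 5066384 in ChIP and 800923 and 388272 in input. They served only to give reads per window. As counts were not tested, intervals cover counting error only. A table line that is no window was left out, and 14 other input columns were not used. Libraries without the tag and sir4 libraries were not analysed here.

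Ratios were log2((ChIP + 1)/(input + 1)) within a strain. limma 3.58.1 in R 4.3.3 compared log2(signal + 1) of ChIP with input, without trend or block, adjusted by Benjamini-Hochberg over 1118 windows. Other steps used Python 3.11.15, numpy 2.4.6, pandas 2.3.3, scipy 1.17.1 and matplotlib 3.10.9. The limma step was tested on simulated data. Replicate numbers are strain isolates in the labels, so the ratios paired ChIP and input by strain. The limma fit without the block did not use this pairing, and the fit with the block did. Their standard errors were 0.61 and 0.29. Deviations of ChIP and input from the group means correlated with r = 0.0355 over windows. That value leaves out any level common to all windows of a library. Genes came from the R64 annotation, by a window centre within 500 bp upstream of an ORF. Classes were assigned in the order rDNA, chromosome end, subtelomeric, tRNA, upstream of an ORF (300 bp), inside an ORF and other. On chromosome III the files' coordinates depart from R64 beyond HMR, so 4 windows there had no gene. Sequences are not reported here.

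The windows, gene lists and rules were chosen with earlier results of these data known. Named windows were HML-E, HML-p, HML-I, MAT-p, SST2, RPS4A and HIS4, the 15 highest and 15 lowest, up to 5 highest and 2 lowest of each list or class, and the 10 that differed most between strains or moved most in rank against ChIP alone. The RP pairs, RPS29A, RPS22B, LEU2 and the promoter-to-body comparisons were named after values were seen. Alternatives covered pseudocounts, a signal minimum, scaling, the block, a trend, left-out strains, the denominator and the upstream distance.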

Additional observations from a re-analysis of the deposited data

How the results depend on the processing

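The count of windows with ChIP above input was 118. It was 474 with each library scaled to its median window, 366 scaled to its total over windows, 472 with the median scaling and the replicate block together (added after seeing the data) and 43 with a trend on mean signal. With ChIP and input paired by strain (replicate block) it was 206, and 741 windows were below input. With a trend 19 were below. The median log2 ratio was 0.045 with the median scaling and -0.40 with the total scaling. In ChIP signal alone, without input, the rDNA median was 5.91, the windows of class other 0.99, RP promoters 2.63, translation factors 2.13, mating genes 1.29, glycolytic genes 0.97 and amino acid genes 0.40. ChIP alone gave 0.76 for HML-p minus MAT-p, -0.35 for HML-E minus HML-p, -0.26 for HML-I minus HML-p and 0.0897 for HML-I minus HML-E. HML-p minus MAT-p was 1.11 and 1.09 with pseudocounts of 0.1 and 5, and 1.12 with the mean of both inputs. With genes assigned within 300 bp, medians were 2.28 for RP genes, 2.09 for amino acid genes, 2.16 for mating genes, 1.12 for ribosome assembly, 0.79 for translation factors (1 window) and -0.40 for glycolysis (1 window). The telomere and silencing factor list was at -0.50 with a signal minimum of 50. Leaving out a strain gave 3.96 to 4.08 for chromosome ends, -1.26 to -1.01 for rDNA, 0.75 to 1.03 for ribosome assembly and -0.42 to -0.41 for the telomere list. The other list, class, HML and MAT values kept their sign and stayed within the spread between strains. Of 119 named windows, 4 changed sign under an alternative, those of ILV5, RPL8B and TDH3 and that at III 15252. The cause of these moves was not tested. Leaving out a strain left no residual degrees of freedom, so counts were not recomputed there. The planned motif search was not run because no genome was used here. Windows with few input reads have a larger counting error, and 5 had under 20 in a strain.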

Other observations

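Strong Rap1 windows were also found upstream of single genes that belong to none of the lists. The names were chosen after the values were seen. SNF4, which encodes the regulatory gamma subunit of the Snf1 kinase, had a ChIP signal of 1077 and 1283 in strains 1 and 2, against 157 and 397 in the input. Its relative enrichment was 3.67 and 3.16, at rank 48. SHE9, which encodes a mitochondrial inner membrane protein, had 1026 and 1182 in the ChIP libraries, against 162 and 371 in the input, at rank 57. At both genes ChIP lay above input in each strain, and the window was called above the median window (adjusted p from limma of 1.85e-12 for each). Both differed more between the strains than the median window did, with SDs of 0.36 and 0.30.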
